A study of Mus musculus with 10 samples.

Results

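Introns, the parts of a gene that are spliced out of its transcript, are mostly CpG-poor and in mammals are usually highly methylated away from the start of the gene. A level between the extremes arises where cells, alleles or neighbouring CpGs differ. In the male germline, methylation is erased in primordial germ cells and is laid down again by de novo methyltransferases in prospermatogonia, the arrested germ cells of the late fetal testis, so that a locus may be caught part of the way.

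The regions described here were 11144 partly methylated intronic regions of the mouse autosomes, of 119729 regions covered in all. A region was a run of at least 3 CpGs, each at most 100 b from the next, with both strands of a CpG counted once. A member lay wholly in introns of GENCODE genes and touched no promoter, no exon and no soft-masked (repeat) base. Membership was defined by measured values, since the methylation level of a member (methylated reads of all its CpGs divided by all their reads), averaged over the 10 samples, had to lie from 20 to 80%. The level itself is therefore a description. The rule did not use the difference between the groups, but the set was proposed with earlier results of these data known.

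Methylation was measured by reduced representation bisulfite sequencing (RRBS), in which DNA is cut at CCGG by MspI and bisulfite makes unmethylated cytosine read as T. The 5 control pools came from fetuses of C3H/HeN dams on tap water, and the 5 arsenic pools from fetuses of C3H/HeN dams whose tap water held sodium arsenite from mid-gestation until the testes were taken shortly before birth. All were F1 male fetuses, and cells of both groups were selected with magnetic beads by Thy1 (CD90.2). A pool combined the testes of embryos from many litters, with few from any one dam, so that each pool is an average over litters and the pool is the replicate.

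Every cytosine had at least 10 reads in every sample, with a median coverage of 25 to 35 reads in control pools and 31 to 40 in arsenic pools, and the total number of CpG calls per pool was 44207245 to 66570870. A member had a median of 209 reads in a pool and never fewer than 30. At 105 methylated of 209 reads the 95% Wilson interval is 43.5 to 57%, which covers counting error only.

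The label of the cells was checked against promoters that germ cells of this stage are known to keep unmethylated and somatic cells methylate. Of 14 such germline genes 11 were covered, among them *Dazl* and *Ddx4*, which encode RNA-binding proteins of germ cells. Their mean promoter level was 56.2, 60.3, 62.1, 62.5 and 57.4% in control pools 1 to 5 and 46.5, 57.3, 61.2, 67.6 and 74.8% in arsenic pools 1 to 5. No gene of the list was near 0, the gene means being 38.7 to 69.2%. Promoters of maternally imprinted genes, whose mark is erased in male germ cells and covers the maternal allele of somatic cells, were at 30.9, 36.4, 44.0, 44.2 and 40.6% in control pools and 29.3, 42.3, 44.9, 43.3 and 57.2% in arsenic pools (7 of 10 genes covered). These levels go against a pure germ cell preparation, and the cells are called prospermatogonia below only as labelled. Arsenic pool 1 was lowest and arsenic pool 5 highest in the mean of both lists. Single genes did not all follow this order. Arsenic pool 5 was not the highest pool in *Ddx4*, *Sycp1*, *Mael*, *Taf7l*, *Snrpn*, *Zrsr1* and *Mcts2*. Arsenic pool 1 was not the lowest in *Dazl*, *Slc25a31*, *Asz1*, *Taf7l*, *Hormad1*, *Rpl10l*, *Plagl1*, *Nnat* and *Zrsr1*. In the other covered genes of both lists the order held. In such bulk pools a different share of cell types and a different level per cell cannot be told apart.

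A set of 6 members illustrates what such a region looks like. They were the 3 lower and the 3 higher in the arsenic group with the smallest p-values of the region test, among members whose groups did not overlap and that were at most 300 b long. The sequences are the plus strand of the GRCm38 reference (not of the C3H/HeN strain), 5′ to 3′, with each CpG in capitals, from the first to the last CpG of the region. The first 3 were lower in the arsenic pools and the others were higher.
Eif3h: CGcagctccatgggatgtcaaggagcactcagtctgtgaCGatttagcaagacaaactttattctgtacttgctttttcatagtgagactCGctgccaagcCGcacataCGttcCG
Gm20388: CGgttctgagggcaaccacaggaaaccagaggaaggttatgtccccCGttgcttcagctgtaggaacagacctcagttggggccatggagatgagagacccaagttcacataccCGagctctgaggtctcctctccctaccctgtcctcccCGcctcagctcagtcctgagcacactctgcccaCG
Megf6: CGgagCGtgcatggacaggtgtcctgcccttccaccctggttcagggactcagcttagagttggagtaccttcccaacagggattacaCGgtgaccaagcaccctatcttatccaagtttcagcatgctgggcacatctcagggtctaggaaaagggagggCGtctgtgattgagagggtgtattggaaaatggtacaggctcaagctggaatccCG
Gm43624: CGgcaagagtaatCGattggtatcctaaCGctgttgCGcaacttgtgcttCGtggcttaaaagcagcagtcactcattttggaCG
AC151294.2: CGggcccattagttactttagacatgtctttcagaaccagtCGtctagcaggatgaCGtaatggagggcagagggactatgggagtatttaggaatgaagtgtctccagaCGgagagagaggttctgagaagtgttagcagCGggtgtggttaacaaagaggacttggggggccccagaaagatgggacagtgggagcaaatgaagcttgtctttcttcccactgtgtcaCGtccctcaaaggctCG
Man1c1: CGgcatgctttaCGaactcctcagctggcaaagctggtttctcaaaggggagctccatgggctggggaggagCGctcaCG

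The *Eif3h* member, in a gene for a subunit of the translation initiation factor eIF3, was at chr15:51805339-51805454 in intron 2 of 7. Its level was 83.4, 88.6, 84.8, 78.0 and 85.5% in control pools and 65.1, 70, 70.7, 60.8 and 72.3% in arsenic pools, a difference of -16.3 percentage points. The difference was uneven along the sequence. The CpG at base 40 was at 76.2% ± 5.29 (SD, n = 5) in controls and 35.9% ± 15.9 in arsenic pools, whereas the CpG at base 102 was at 89.9% ± 9.76 and 84.8% ± 11.3. Single CpGs of this member rested on 11 to 28 reads.

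The same unevenness was seen in the other members that were lower. In *Gm20388* (chr8:121654820-121655005, intron 1 of 15) the CpG at base 1 was at 50.9% in controls and 28.3% in arsenic pools, the CpG at base 47 at 69.3% and 28.3%, and the CpG at base 115 was at 68.6% in controls and 61.8% in arsenic pools. In *Megf6*, which encodes a protein with EGF-like domains (chr4:154236559-154236775, intron 4 of 36), the isolated CpG at base 89 was at 43.6% ± 9.24 in controls and 14.1% ± 4.77 in arsenic pools on 35 to 99 reads. Its neighbour at base 162 was at 73.1% ± 13.4 and 65.3% ± 3.77. These single CpGs were described after the region was chosen for its difference.

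**Figure D1:**
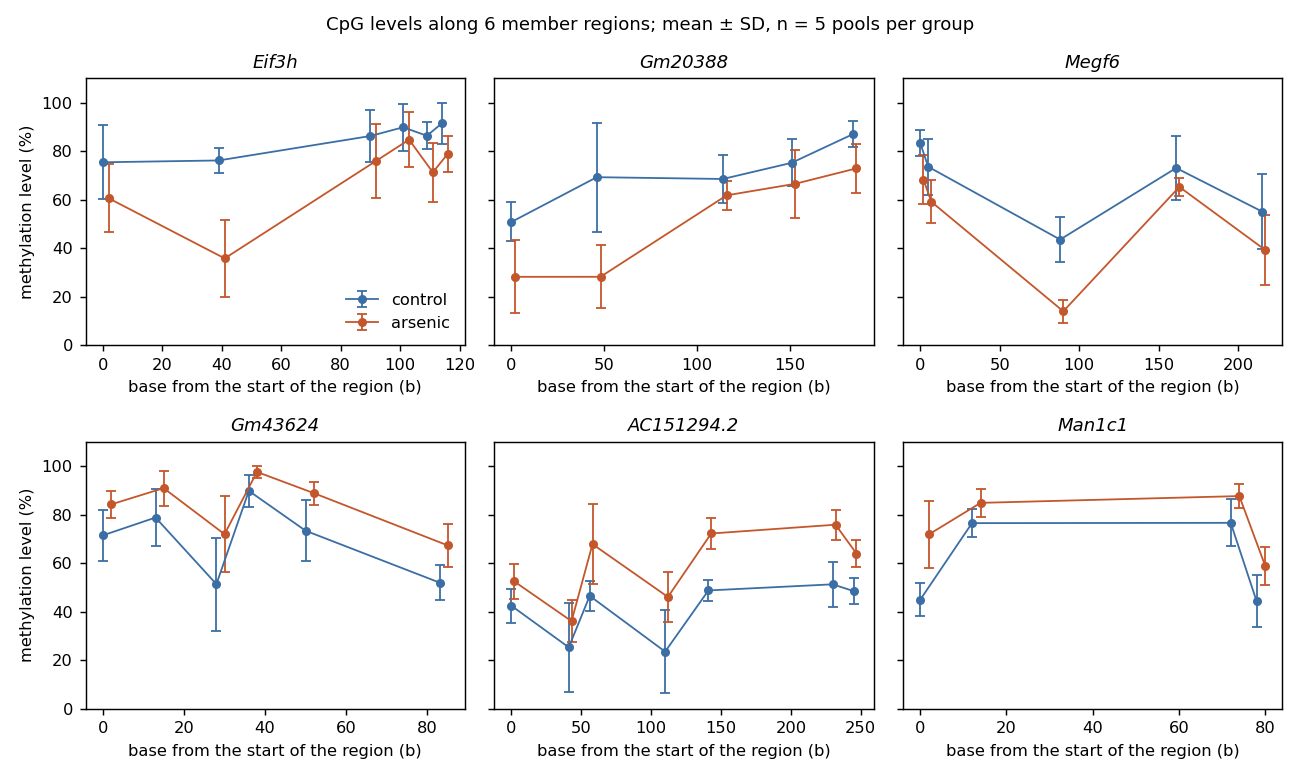
Methylation level (%) of each CpG against its distance in bases from the start of the region in the 6 members whose sequences are printed; points are group means, bars the SD over 5 pools, blue control and orange, shifted by 2 b, arsenic. The *Eif3h* CpG at base 40 lies at 76.2% in controls and 35.9% in arsenic pools, while CpGs near the end of that region lie within 16 points of each other.

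Among the members that were higher, every one of the 7 CpGs of the *AC151294.2* member (a lincRNA, chr17:29981433-29981679, intron 1 of 1) was higher in the arsenic pools, by 10 to 24.6 points. Its level was 40, 33.9, 47.7, 45.2 and 36.7% in control pools and 60.7, 52.6, 60.7, 67.5 and 53.6% in arsenic pools. In *Man1c1*, a mannosidase of the Golgi (chr4:134633573-134633652, intron 3 of 12), control pools were at 61.5, 58.7, 68.9, 52.0 and 62.6% and arsenic pools at 78.6, 77.1, 71.5, 72.9 and 78.6%. Its 4 CpGs were higher by 26.9, 8.35, 11 and 14.5 points. The member of the pseudogene *Gm43624* (chr5:145961972-145962056) was at 66.9, 66.1, 77.8, 64.7 and 66.5% and at 86.2, 79.7, 78.7, 81.9 and 86.4%, with control pool 3 close to the lowest arsenic pool.

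Members were short, CpG-poor stretches that differed from weakly methylated introns in sequence and place and resembled highly methylated ones. A member had a median of 4 CpGs over 115 b, with 2.0 CpGs per 100 b in the surrounding 500 b and 49.4% GC. The 3894 intronic regions under 20% had a median of 4.8 CpGs per 100 b and 58.2% GC, and the 7091 over 80% had 1.8 and 48.4%. The ratio of observed to expected CpGs was 0.324 in members, 0.594 under 20% and 0.309 over 80%. These are descriptions over regions of the same libraries.

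First introns held 35.2% of members, against 76.8% of intronic regions under 20% and 23.8% of those over 80%. Introns of rank 5 and above held 29.8%, 6.11% and 41.8%. The median distance from the start of the host transcript was 43.5 kb for members, 1.01 kb under 20% and 47.9 kb over 80%. Members thus stood between both classes by intron rank, and near the highly methylated class by distance.

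Motifs were searched on both strands in 300 b centred on each region. CCGG, the MspI site on which RRBS depends, was in 98.8% of member windows and in 99.0% of the windows of all regions. GGGCGG, the GC box, was in 8.68% of members, 35.6% of intronic regions under 20%, 5.09% of those over 80% and 17.5% of all regions. CACGTG, the E-box, was in 6.03% of members and 5.84% of all regions.

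Within a member the CpGs were seldom alike. The range of CpG levels (means over 10 pools) inside a member had a median of 23.3 points and quartiles of 14.6 and 35.1. Of the 51800 CpGs in members, 79.8% were themselves at 20 to 80%, and in 1302 members (11.7%) the CpG levels spanned over 50 points. Members at 20 to 40%, 40 to 60% and 60 to 80% numbered 1787, 3360 and 5997, and 6383 members (57.3%) were between 20 and 80% in each of the 10 pools.

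The 3 members with the smallest SD over the pools owed their level to such a mixture. The *Mgat5* member (a Golgi enzyme that branches N-glycans; chr1:127387628-127387719, intron 9 of 17) was at 49.5 to 52.0% in all 10 pools. Its first CpG was at 0 to 2.14% in every pool and the other 3 were at group means of 87.8 to 91.2%. The *Fras1* member (a protein of the epithelial basement membrane; chr5:96731766-96731831) was at 42.7 to 45.4%, with a CpG at 0 to 4.00% and 2 CpGs at group means over 95%. The *Gm2762* member (chr13:53440924-53441060) was at 44.5 to 48.0%, with a CpG read as T in all reads of all pools between 2 highly methylated ones.

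By a narrower rule, 244 members (2.19%) held both a CpG at most 2% methylated in every pool and one with a mean over 80%. That rule left out the *Mgat5* and *Fras1* members, whose lowest CpGs reached 2.14 and 4.00% in a pool. Bisulfite reads do not distinguish an unmethylated cytosine from a T in the strain, and whether these CpGs exist in C3H/HeN was not tested. Without these 244 members the values given below hardly moved, with 635 in place of 636 regions lower and 65 in place of 65 higher.

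At the other end, the largest SDs over the pools came from members with 30 to 224 reads in a pool. *Itpr2*, the gene of an IP3 receptor, had a member (chr6:146170954-146171083) at 54.6, 79.6, 0, 43.7 and 52.3% in control pools and 38.7, 61.8, 85.7, 59.6 and 80.3% in arsenic pools on 48 to 136 reads. The *Plekha7* member (an adherens junction protein) ran from 22.6 to 100% within the control group and the *Syt16* member from 20 to 89.7% within the arsenic group. The groups overlapped in these 3 members, and none passed the test at an unadjusted p of 0.05.

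Members were lower in the arsenic pools on average. Their mean level was 62.1, 59.2, 59.2, 59.5 and 59.9% in control pools 1 to 5 (60% ± 1.23, SD, n = 5) and 52.5, 57.7, 60.1, 57.7 and 57.8% in arsenic pools 1 to 5 (57.2% ± 2.77), a difference of -2.85 points. 4 of the arsenic pools were below every control pool, and arsenic pool 3 was above all control pools but control pool 1. Without arsenic pool 1 the difference was -1.69 points, and without control pool 1, the highest pool, it was -2.31 points. Arsenic pool 1 was also lowest for all regions, at 49.3% against 52.7 to 55.1% in the other arsenic pools. The 3519 members with at least 200 reads in every pool gave -2.72 points.

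The difference was larger than in the series as a whole. Over all 119729 regions it was -0.78 points, and 0.12 without arsenic pool 1. Over the 59847 regions of any kind at 20 to 80% it was -0.92 and 0.57 points. The 9882 intergenic regions of that range (median 1.8 CpGs per 100 b) gave -1.45 and -0.058 points, the 9185 soft-masked intronic regions of that range -1.61 and -0.32 points, and the 7091 intronic regions over 80% gave -1.57 and -1.11 points. Intronic regions under 20% were at 4.09% ± 0.116 in controls and 3.96% ± 0.282 in arsenic pools. No test was made of these differences between sets, since the regions share pools and the set was proposed with results known.

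**Figure D2:**
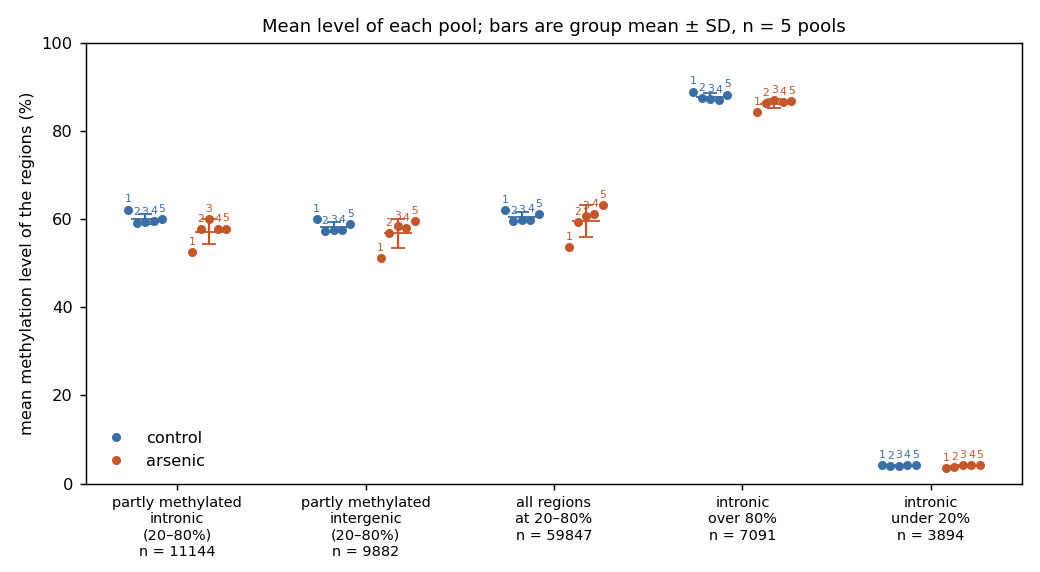
Mean methylation level (%) of each pool (numbered points, blue control, orange arsenic) over 5 sets of regions, with group mean ± SD (n = 5 pools). In partly methylated intronic regions 4 arsenic pools lie below all control pools and arsenic pool 3, at 60.1%, does not; arsenic pool 1 is the lowest pool in every set.

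The lower level was spread over the genome. The arsenic mean of the members was lower on 19 of 19 autosomes, with differences of -2.25 to -3.58 points, and without arsenic pool 1 it was also lower on 19 of 19, with differences of -0.980 to -2.47 points. Autosomes carried 358 to 847 members each. Over single members, 7963 (71.5%) had a lower arsenic mean, against 57.7% of all regions, and the median difference was -2.92 points against -0.42. Without arsenic pool 1 these values were 64.3% and -2.0 points for members and 51.1% and -0.054 for all regions. The share was not particular to members. Of intronic regions over 80%, 72.1% had a lower arsenic mean (65.5% without arsenic pool 1), with a median difference of -1.48 points. For intergenic regions at 20 to 80% the values were 62.1% (53.8%) and -1.68 points.

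**Figure D3:**
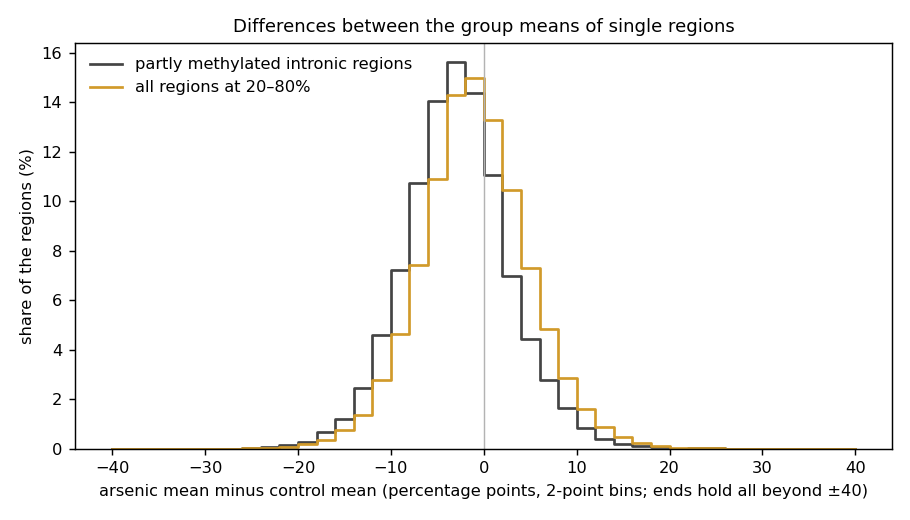
Share (%) of regions by difference of group means (arsenic minus control, percentage points, bins of 2 points) for the 11144 partly methylated intronic regions and for all 59847 regions at 20 to 80%. The intronic curve is shifted to the left as a whole, with its highest bin (15.6% of members) from -4 to -2 points.

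No single member was called. Limma, on each region's log2 ratio (methylated over unmethylated reads) and fitted on all 119729 regions, gave no region with a Benjamini-Hochberg adjusted p under 0.05 (0% of regions), and the smallest adjusted p was 0.708. An overdispersed logistic regression of the regions also called 0 members. At an unadjusted p under 0.05, 943 members (8.46%) passed in limma, 860 lower and 83 higher, against 6.94% of all regions.

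With a difference of at least 10 points added, 636 members (5.71%) were lower and 65 (0.583%) higher, where the background over all regions was 1.88% lower and 0.771% higher. Many of all regions lie near 0 or 100%, and among the 59847 regions at 20 to 80% the shares were 3.42% lower and 1.42% higher, among intergenic ones 4.30% and 1.36%. The lower share of members stood above each of these and the higher share below, without a test of the difference. These counts rested in part on single pools. Without arsenic pool 1 there were 423 lower and 227 higher, without arsenic pool 3 there were 1016 lower, and without arsenic pool 4 or 5 there were 43 or 40 higher. Without control pool 1 there were 475 lower and 71 higher. All arsenic pools were below all control pools in 185 members (1.66%, background 1.00%) and above in 18 members (0.162%, background 0.323%). Similar sets were close to these shares. They were 1.55% below and 0.253% above in intergenic regions at 20 to 80%, and 1.46% and 0.196% in soft-masked intronic ones. In intronic regions over 80% they were 1.52% and 0.113%.

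Among the members with at least 200 reads in every pool, 5.12% were lower and 0.426% higher by the same thresholds, against 1.11% and 0.454% of all regions so covered. The lower share of members was thus also above that of all regions where counting error was smallest. The other regions so covered were not limited to 20 to 80%, so this comparison is not matched for level. A logistic regression per cytosine that takes reads as independent (q of at most 0.01 and at least 10 points) called 3077 of the 71280 cytosines in members lower (4.32%, background 1.48%) and 550 higher (0.772%, background 0.784%). In all regions at 20 to 80% the shares of cytosines were 2.57% lower and 1.61% higher. Higher calls numbered 995 without arsenic pool 1 and 323 without arsenic pool 5. With overdispersion between pools in the model it called 0 in both directions, with an unadjusted p under 0.05 at 6.77% of member cytosines and 5.43% of all cytosines in regions.

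The members named first by the smallest p had limma estimates far from 0 and yet an adjusted p of 0.708 each. On the log2 ratio scale *Eif3h* differed by -1.30 (SE 0.26), *Gm20388* by -1.08 (0.23) and *Megf6* by -1.09 (0.24). Among the higher ones *Gm43624* differed by 1.11 (0.27), *AC151294.2* by 1.06 (0.26) and *Man1c1* by 1.00 (0.25). The change in percentage points was -17.8 in *Gm20388*, -18.6 in *Megf6*, 14.1 in *Gm43624*, 18.3 in *AC151294.2* and 15 in *Man1c1*.

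Further members were named by the same rule. The antisense gene *Gm13111* (chr4:154640430-154640558) was at 22.7, 22.6, 29.7, 37.5 and 23.2% in control pools and at 12.6, 17.5, 14.4, 13.1 and 12.7% in arsenic pools. The groups did not overlap, as the rule for naming required.

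Of the higher ones, the lincRNA *Gm11587* (chr1:61302166-61302258) was at 37.1, 43.3, 33.3, 25 and 29.7% in control pools and 45.3, 50, 62.2, 57.1 and 47.3% in arsenic pools. *Ccdc110*, a coiled-coil gene, held 13 CpGs in intron 4 of 6 (chr8:45939452-45939804) at 60.7, 67.4, 71.7, 64.4 and 67.3% and at 77.7, 72.0, 75.6, 80.1 and 79.7% on 368 to 652 reads. In *Ccdc110* the lowest arsenic pool was just above the highest control pool.

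By intron rank, members in first introns had the lowest level, and the difference between the groups varied little by rank. The 3925 members in first introns were at 58.4% ± 1.15 in controls and 55.6% ± 2.90 in arsenic pools (-2.72 points). The 3899 in introns 2 to 4 gave 60.2% ± 1.25 and 57.4% ± 2.76 (-2.86), and the 3320 in introns of rank 5 and above gave 61.7% ± 1.31 and 58.7% ± 2.66 (-2.98). The gap of first against later introns was -2.57 ± 0.19 points over control pools and -2.37 ± 0.41 over arsenic pools, a difference of 0.196 points, against a spread between pools of 0.318 points (1 SD). It was 0.487, 0.333 and 0.516 points with at least 5 CpGs per region, with levels of 30 to 70% and with at least 200 reads in every pool. These values are above the spread of the full set, but the spread within these smaller sets was not computed.

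By length of the host gene, the difference was smaller in short genes. The 1047 members in genes under 20 kb were at 56.8% ± 0.913 and 55.2% ± 3.06 (-1.63 points, or -0.31 without arsenic pool 1). The 3868 in genes of 20 to 100 kb gave -2.70 points and the 6229 in genes over 100 kb gave -3.14 points (-1.57 and -1.99 without arsenic pool 1). Members in long genes exceeded those in short genes by 4.54, 3.36, 3.76, 3.99 and 3.82 points in control pools and by 3.08, 3.02, 4.18, 1.2 and 0.45 points in arsenic pools.

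This gap between long and short genes differed by -1.51 points between the arsenic and the control group, more than the spread between pools (1.12 points, 1 SD). Split at the median gene length instead, the difference was -0.450 points. Arsenic pools 4 and 5 had the smallest gaps, and arsenic pool 3 had a gap above all control pools but control pool 1. Distance from the transcript start gave the same order, with differences of -1.75 points under 5 kb, -2.76 at 5 to 50 kb and -3.21 beyond 50 kb (-0.48, -1.60 and -2.08 without arsenic pool 1).

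By CpG density, the difference in mean level was largest where CpGs were sparse. The 4155 members with at most 1.6 CpGs per 100 b were at 64.7, 61.8, 61.3, 61.7 and 61.9% in control pools and 54.9, 59.9, 62.2, 59.0 and 58.4% in arsenic pools, a difference of -3.40 points (-2.41 without arsenic pool 1). The 3657 members of the middle class gave -2.99 points (-1.86). The 3332 members with more than 2.2 CpGs per 100 b were at 59.1, 56.3, 56.8, 57 and 57.6% and at 49.8, 55.4, 57.6, 56.5 and 57.5%, a difference of -2.0 points (-0.605). From sparse to dense, 6.23, 5.93 and 4.80% of members were lower past the unadjusted limma p and 10 points. Other counts did not follow this order. The logistic regression called 4.29, 4.57 and 4.12% of cytosines lower. All arsenic pools were below all control pools in 1.66, 1.89 and 1.41% of members.

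CpG-dense members were below CpG-sparse ones in every pool, with dense minus sparse at -5.55, -5.45, -4.54, -4.72 and -4.29 points in control pools and at -5.15, -4.45, -4.56, -2.52 and -0.89 points in arsenic pools. The change of 1.40 points in this gap was just above the spread between pools (1.31 points, 1 SD), and it was 0.741 points without arsenic pool 5. Arsenic pools 4 and 5, which set this contrast, also had the highest mean levels over the germline promoter list (67.6 and 74.8%). The part of that in the result was not tested. Intergenic regions at 20 to 80% showed -2.36 points where CpG-sparse and 0.071 where CpG-dense by the same bounds, and without arsenic pool 1 -1.25 and 1.84 points. Intronic regions over 80% differed little by density, with -1.57 points where sparse and -1.54 where dense (-1.14 and -0.95 without arsenic pool 1).

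**Figure D4:**
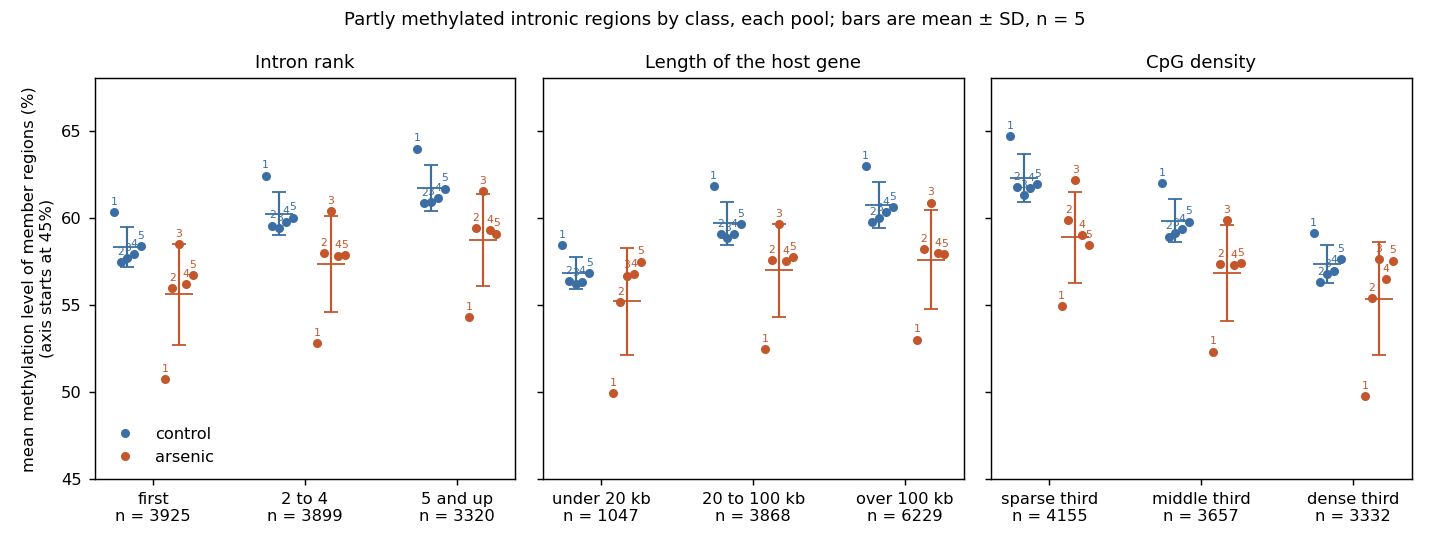
Mean methylation level (%, axis from 45%) of members in each pool (numbered points, blue control, orange arsenic) by intron rank, host gene length and CpG density, with group mean ± SD (n = 5 pools). Group means differ by -2.72 to -2.98 points over intron ranks, by -1.63 to -3.14 over gene lengths and by -3.40 to -2.0 from CpG-sparse to CpG-dense members.

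Density and gene length were also read within each other. CpG-sparse members gave -2.67 points in genes under 20 kb, -3.42 in genes of 20 to 100 kb and -3.50 in genes over 100 kb, and without arsenic pool 1 -1.57, -2.42 and -2.53. CpG-dense members gave -0.357, -1.61 and -2.56 points, and without arsenic pool 1 they gave 1.2, -0.263 and -1.17, so that in short genes the sign turned with that pool. The arsenic minus control difference was more negative in sparse than in dense members of each length class, with and without arsenic pool 1. In first introns the values were -3.43 where sparse and -1.72 where dense (-2.37 and -0.28 without arsenic pool 1), and in later introns -3.38 and -2.15 (-2.43 and -0.775).

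The level of a member also went with its difference, although the level was what chose the members. Those at 20 to 40% gave -4.19 points (-3.09 without arsenic pool 1), those at 40 to 60% gave -2.99 (-1.61) and those at 60 to 80% gave -2.37 (-1.31). Within these levels, sparse members gave -5.02, -4.03 and -2.74 points and dense members -3.22, -1.73 and -1.70. Without arsenic pool 1 the sparse values were -4.05, -2.88 and -1.83 and the dense values -2.0, -0.11 and -0.393 points.

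**Figure D5:**
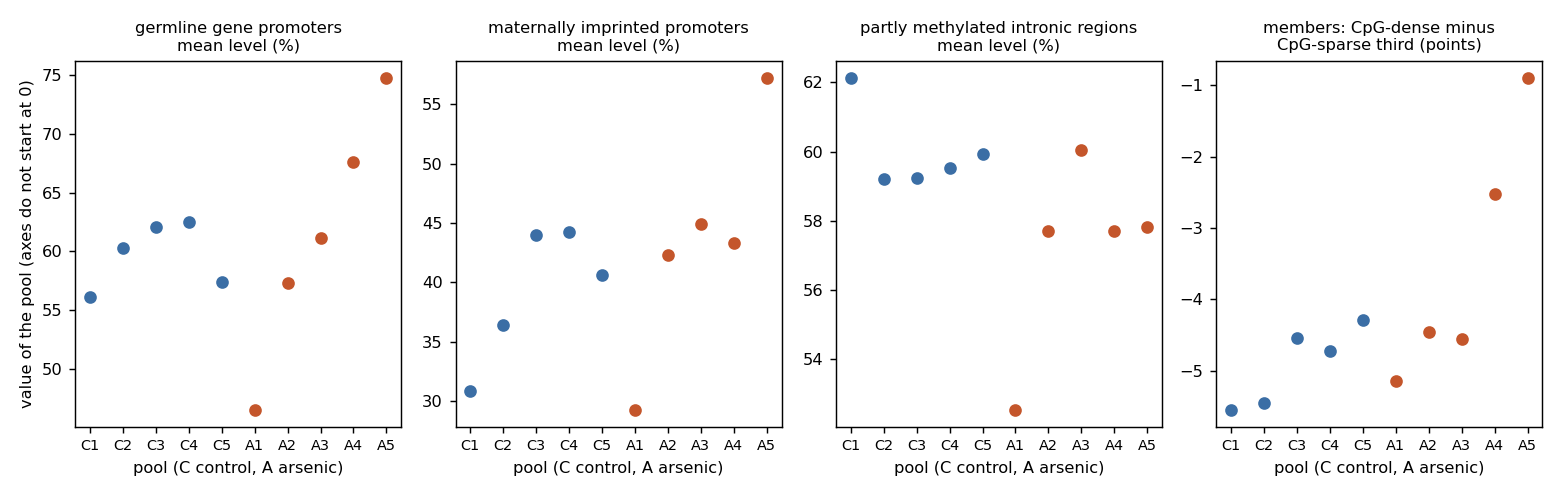
Values of each pool (C control, A arsenic, numbered 1 to 5; axes do not start at 0) for the mean level of germline promoters, of maternally imprinted promoters and of members, and for the gap in points between CpG-dense and CpG-sparse members. Arsenic pool 1 is lowest in the first 3 panels, and arsenic pool 5 is highest in the promoter panels (74.8 and 57.2%) and has the gap nearest to 0.

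The members with the most CpGs lay in *Jarid2*, an accessory subunit of Polycomb repressive complex 2, in *Rbfox3*, a neuronal splicing factor, and in *Arhgap21*, a GTPase-activating protein. The *Jarid2* member (26 CpGs, chr13:44869704-44870034, intron 3 of 17) was at 53.3, 66.8, 57.6, 66.3 and 56.4% in control pools and 53.3, 64.2, 72.1, 63.2 and 74.1% in arsenic pools on 1389 to 2165 reads. The groups overlapped (log2 ratio 0.34, SE 0.30, limma adjusted p = 0.827). From base 1 to base 89 its CpGs had control means of 45 to 58.7% and arsenic means of 74.7 to 80.3%, with single pools from 5.88 to 88.9%, and the CpG at base 97 was at 52.8 and 49.7%. Between bases 109 and 317 the control means stayed within 58.0 to 67.2% and the arsenic means within 62.7 to 72.3%.

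The *Arhgap21* member (24 CpGs, chr2:20899824-20900209, intron 4 of 25) was at 29.2, 39.8, 42.0, 37.8 and 30.5% and at 36.6, 40.7, 46.3, 46.1 and 43.1%, also overlapping (log2 ratio 0.41, SE 0.25, limma adjusted p = 0.753). It had a step, with control means of 55.0 to 67.7% up to base 219 and of 15 to 24.8% from base 315 onward. The *Rbfox3* member (25 CpGs, chr11:118891240-118891694, intron 1 of 13) was at 70.6% ± 2.62 and 68.6% ± 5.07 (limma adjusted p = 0.921).

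The 11144 members lay in 5011 host genes, of which 2909 held 1 member and 111 held 10 or more. Protein-coding genes held 9790 members and lincRNAs 904. The most members were in *Gm20388*, a gene model of 4435 kb on chromosome 8, with 175 members at 58.6% ± 1.28 in controls and 54.3% ± 2.78 in arsenic pools. Of these, 139 had a lower arsenic mean and 16 were lower and 2 higher by the unadjusted p and 10 points.

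*Camta1*, a calmodulin-binding transcription activator, had 47 members at 61.6, 56.5, 58.2, 59.1 and 59.5% in control pools and 50.7, 55.5, 58.8, 56.2 and 56.7% in arsenic pools, of which 37 were lower on average and 1 passed the unadjusted p and 10 points. *Fgfr2*, a fibroblast growth factor receptor annotated over 2961 kb, had 44 members at 61.5% ± 2.23 and 59.2% ± 3.07, with 29 lower on average and 2 past the same thresholds. The groups overlapped in the mean of either gene.

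Host genes were also grouped by lists of pathways and gene families. For all counts of host genes, the shares to set them beside are 5.71% of members and 1.88% of all regions lower past the unadjusted p and 10 points, and 71.5% and 57.7% with a lower arsenic mean. Chromatin and DNA methylation genes (24 of 50 with members) held 78 members at 61.9% ± 1.78 in controls and 56.9% ± 4.05 in arsenic pools, 66 of them with a lower arsenic mean, 9 past the unadjusted p and 10 points as lower and 0 as higher. Germ cell and piRNA pathway genes (11 of 40) held 25 members, 23 with a lower mean and 2 past those thresholds as lower. Their medians were -4.58 and -4.94 points, against -2.92 over all members and -0.42 over all regions, and without arsenic pool 1 they were -2.67 and -4.69.

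Collagen and laminin genes, which build the extracellular matrix (32 genes), held 87 members with a median of -4.14 points, 67 with a lower mean and 6 past the thresholds as lower. Fetal testis somatic cell genes (19 of 50) held 99 members with a median of -3.32, 70 with a lower mean and 7 past them. Voltage-gated channel genes (35 genes) held 109 members with a median of -1.97 points, 74 with a lower mean and 3 past them. Imprinted genes (18 of 60) held 37 members with a median of -1.94 points, 24 with a lower mean and 1 past them. Without arsenic pool 1 the medians of these 4 lists were -3.46, -2.53, -1.59 and -0.484 points. Single genes weighed heavily in some lists. *Fgfr2* alone held 44 of the 99 members of the somatic cell list and 29 of the 70 with a lower mean. *Prdm16* held 21 of the 78 members of the chromatin and DNA methylation list. In none of these 6 lists was a member past the thresholds as higher, where the share over all members was 0.583%. Nothing here is shown to be particular to a list.

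The deepest member of each list shows the range. In *Gfra1*, the co-receptor of GDNF on spermatogonial stem cells, a member of 10 CpGs (chr19:58310269-58310598) was at 74.0, 68.3, 68.2, 69.7 and 71.3% in control pools and 66.2, 69.0, 66.1, 64.5 and 62.3% in arsenic pools, with an overlap through arsenic pool 2 (limma adjusted p = 0.774). In *Notch2*, a receptor of Notch signalling, a first-intron member of 9 CpGs (chr3:98024520-98024665) was at 31.1, 32.1, 35.0, 40.8 and 32.2% and at 12.4, 25.2, 33.9, 23.3 and 12.1%. 4 of the arsenic pools of *Notch2* were below all control pools, and the log2 ratio differed by -1.04 (SE 0.37, limma adjusted p = 0.708).

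*Col13a1*, a transmembrane collagen, was at 40.7, 43.7, 44.7, 28.0 and 34.2% in control pools and 25.9, 27.8, 34.7, 20.7 and 22.8% in arsenic pools over 17 CpGs (chr10:61928586-61929179), overlapping through control pools 4 and 5 and arsenic pool 3. *Cacna1i*, a T-type calcium channel, was at 28.6, 30.7, 25.4, 25.9 and 19% and at 11.6, 22.8, 19.4, 19.7 and 11.8% over 16 CpGs (chr15:80366954-80367343), overlapping through control pool 5. Limma gave an adjusted p of 0.708 for both.

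*Grb10*, an imprinted gene for an adaptor of growth factor receptors, had the most CpG-dense surroundings of any member (15 CpGs, 9.6 per 100 b, chr11:12025639-12025804, intron 1 of 16). It was at 53.6, 45.4, 39.8, 41.6 and 34.4% in control pools and 16, 35.1, 39.9, 31.5 and 63.4% in arsenic pools (limma adjusted p = 0.870). Arsenic pool 1 was lowest and arsenic pool 5 highest, as in the means of both promoter lists above. The part of that in this member was not tested.

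At the thresholds of the choice, members and non-members were alike in level. *Gm47071* and *Myo1e* had means over the 10 pools just inside the lower threshold at 20.01 and 20.03%, and *Stat6* and *Celf4* just outside at 19.98 and 19.98%. At the upper threshold *Gm29016* and *Snx25* were inside at 79.99 and 79.99%, and *Pxn* and *Rtn1* outside at 80.002 and 80.002%.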

How the data were processed

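RRBS counts of 5 control and 5 arsenic pools were used. By its published methods, reads were trimmed by the authors, who mapped them to mm10 with Bismark and united CpG calls with methylKit, strands apart. The submitters' processing notes name Trim Galore 0.6.5, Bismark 0.22.3 and methylKit 1.22.0. The deposited table holds raw counts of reads, methylated reads and unmethylated reads per CpG cytosine. The treatment of PCR duplicates is not given in the sources used here, so reads may not be independent. Of 1349101 entries, 1348062 (chromosomes 1 to 19, X, Y) entered the work, and strands were merged into 1033679 CpGs. Samples were grouped by title. By the published methods, a further arsenic pool was excluded by the authors for its lower number of reads.

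Introns, exons and promoters (1 kb upstream to 100 b downstream of a start) came from GENCODE M21 (basic set) and repeats from soft-masked GRCm38. Intron rank was counted in the longest transcript that holds the region, protein-coding genes first, and for 601 members in introns of more than 1 gene the longest protein-coding gene was taken as host. CpG density was counted in 500 b, and classes are tertiles of the members.

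Regions were tested with limma on log2((methylated + 1)/(unmethylated + 1)) over all regions, with Benjamini-Hochberg adjustment. Class contrasts have no test. Cytosines were tested by logistic regression (likelihood ratio, q of at most 0.01, at least 10 points), repeated with McCullagh-Nelder overdispersion and an F test. Both tests were checked on simulated data. The members, lists and named regions were chosen with earlier results of these data known. Named were 5 lower and 5 higher members without overlap and with the smallest p, the 3 host genes with most members, the 3 members each with most CpGs, largest SD and smallest SD, those nearest each threshold and the deepest of each gene list. A lower member that this rule names is not reported here. The region caller of the study was not used here. Alternatives covered coverage, gaps, CpG number, level range, annotation, depth, tests, the replicate block and each pool left out. The tools were limma 3.58.1 in R 4.3.3, bedtools 2.31.1, scipy 1.17.1, numpy 2.4.6 and pandas 2.3.3 in Python 3.11.15, and matplotlib 3.10.9.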

Additional observations from a re-analysis of the deposited data

Results flagged for a closer look

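Of 62 group values screened for a pool far from the others of its group (gap to the nearest pool over the range of the group above 0.71), 10 stood out, where chance gives about 1 in 20. Control pool 1 was the high pool in 8 of them. It was at 62.1% in the mean of all members, at 62.4% in introns 2 to 4 and 64.0% in introns of rank 5 and above. It was at 58.4, 61.8 and 63.0% in members of genes under 20 kb, of 20 to 100 kb and over 100 kb. It was at 64.7% in CpG-sparse members and 62.0% in members of middle density. These sets share members, so the flags are not separate observations. Arsenic pool 1 was low, at 49.8%, in CpG-dense members. In the *Gm43624* member, control pool 3 was at 77.8%, above the other control pools.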

How the results depend on the processing

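The lower mean level of members in the arsenic group kept its sign in every alternative and moved by less than the spread between pools, and the contrasts of gene length and CpG density did so too. The mean difference ran from -3.57 to -1.69 points with each pool left out. The contrast of first against later introns was 0.516 points among members with at least 200 reads in every pool, an alternative added after the data were seen. Counts of regions and cytosines moved too. With a coverage of at least 20 reads there were 362 lower and 35 higher regions, and with at least 5 CpGs per region 216 and 30, both from smaller sets of members (6302 and 4339). With reads thinned to 10 there were 109 higher regions, 1 lower and 1 higher cytosine. Leaving out each pool gave 423 (without arsenic pool 1) to 1016 (without arsenic pool 3) lower regions, 40 (without arsenic pool 5) to 227 (without arsenic pool 1) higher regions and 323 to 995 higher cytosines. With overdispersion 0 cytosines were called in either direction. Apart from the smaller sets and the thinning, the cause was not tested.

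Replicate numbers did not pair the pools, as correlations of deviations between same-numbered pools were -0.030 to 0.059 and only number 5 was its own best partner. With the replicate block limma called 0 members, and 525 lower and 75 higher passed the unadjusted p and 10 points. Single CpGs of the printed regions rested on 10 to 114 reads in a pool.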
